A study of Mus musculus with 9 samples.

Results

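The complement genes described here are Cd59a, Cd59b, Cd55, Serping1, C3 and C4b, 6 of the 24890 genes kept on the arrays. They were chosen by name as a set of complement components and inhibitors, from levels already measured on these arrays, so their own levels and differences are given as a description with no test. All 6 had at least 1 probe well above background on 3 or more of the 9 arrays, and 11 probes of theirs were measured. Complement is a cascade of blood and tissue proteins. C1q and the lectins start it, C4 and C3 are cut and bind to surfaces, and the terminal components assemble into a pore called the membrane attack complex. CD59 keeps that complex from forming on a cell's own membrane, CD55 (decay-accelerating factor) speeds the breakdown of the enzymes that cut C3, and C1 inhibitor, the product of Serping1, inactivates the proteases of the first component. In the brain, glia make several complement proteins, and C1q and C3 are known for marking synapses that microglia remove.

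Cells were sorted by fluorescence from mice aged 6 to 8 weeks of transgenic reporter lines. From the hippocampus came a Sox2-GFP group and a DCX-DsRed group, and from the subventricular zone (SVZ) a further Sox2-GFP group, making 3 groups with 3 arrays each, called replicates A, B and C. The Sox2 promoter, that of a stem cell transcription factor, drove GFP, and DsRed was driven by that of Dcx, a gene of newborn neurons, so a group holds whatever cells carried enough reporter. Tissue of 10 dissections was pooled for each experiment and amplified RNA of 1000 cells went onto each array. Whether replicates of 1 group were separate pools is not stated in the labels, so p-values reflect just how these arrays scatter, which can be technical. Each level is a log2 signal with the array's 75th percentile set to 0, so that 1 unit is a factor of 2. Probes differ in brightness for the same amount of RNA, so levels are compared only between groups and never between genes.

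The arrays were not alike within groups. The share of probes well above background was 80.2% to 88.3%. Hippocampus Sox2-GFP replicate C had a correlation across genes of 0.82 and 0.78 with its fellow replicates, which had 0.92 with each other and shared a slide. SVZ replicates had 0.82 to 0.84 with each other. Replicate C stood apart in its correlations with arrays of the other groups, at 0.70 to 0.73, against 0.78 to 0.85 for other such pairs. Sox2 was at 0.33 ± 1.08 (SD, n = 3) in hippocampus Sox2-GFP cells, at 1.78 ± 0.73 in SVZ cells and at 1.60 ± 0.23 in DCX-DsRed cells. Dcx was at -1.26 ± 1.41, 1.11 ± 3.0 and -0.24 ± 1.36 in the same order. Of the 3 groups, SVZ cells had the highest mean of both transcripts, and the values of Dcx overlapped between groups. Sox2 was higher on every DCX-DsRed array (1.33 to 1.74) than on every hippocampus Sox2-GFP array (-0.92 to 0.96). SVZ values of Sox2 overlapped both. The arrays lay on 3 slides. Slide 1 held DCX-DsRed A and B and SVZ A, slide 2 held hippocampus Sox2-GFP A and B, and slide 3 held the rest, so hippocampus Sox2-GFP cells shared a slide with the other groups only through replicate C.

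Markers of other cell types differed between the groups, and their part in the results below was not tested. Of 10 listed choroid plexus markers 9 were measured, and their summed level, in units of the array's 75th percentile, was 52.9 to 181 in hippocampus Sox2-GFP cells, against 2.25 to 3.30 in SVZ cells and 2.27 to 3.06 in DCX-DsRed cells. All 9 were well above background on each hippocampus Sox2-GFP array, against 5 to 7 on DCX-DsRed arrays, none of which had Aqp1, and 7 to 8 on SVZ arrays. Ependymal markers, 5 of 6 measured, summed to 7.36 to 13.1 in hippocampus Sox2-GFP cells, against 1.26 to 3.30 in SVZ cells and 0.413 to 0.716 in DCX-DsRed cells. The 10 oligodendrocyte markers summed to 266 to 336 in DCX-DsRed cells, 22.8 to 83.5 in SVZ cells and 2.22 to 41.1 in hippocampus Sox2-GFP cells. The 10 astrocyte markers summed to 89.9 to 179 in SVZ cells, 27.4 to 40.5 in DCX-DsRed cells and 16.2 to 99.6 in hippocampus Sox2-GFP cells. Within hippocampus Sox2-GFP cells, replicate C had the highest choroid plexus sum and the lowest sums of oligodendrocyte and astrocyte markers. The 10 microglia markers are of the cell type known for C1q. They summed to 5.22 to 5.58 in SVZ cells, 6.28 to 9.83 in hippocampus Sox2-GFP cells and 7.55 to 8.27 in DCX-DsRed cells.

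**Figure D1:**
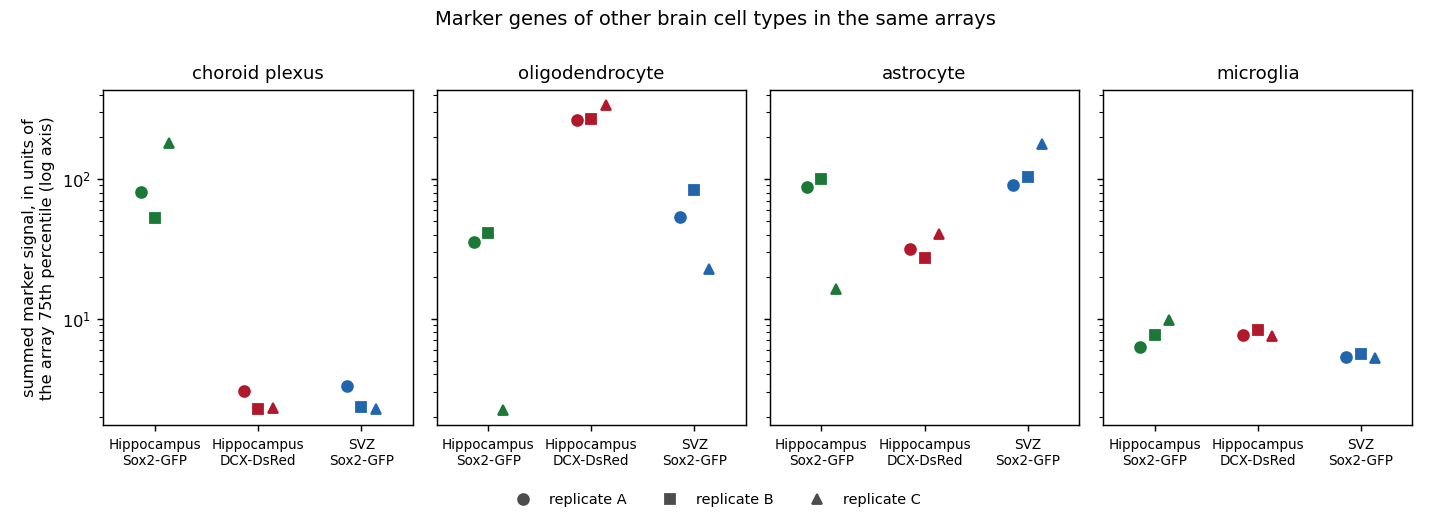
Summed signal of marker genes of 4 other brain cell types (log axis, in units of the array's 75th percentile), 1 point per array, with marker shape for the replicate. Choroid plexus markers are at 52.9 to 181 in hippocampus Sox2-GFP cells and at 3.30 or less elsewhere. Microglia markers are between 5.22 and 9.83, lowest in SVZ cells.

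Cd59a, Cd59b and Cd55 varied together across the arrays on the probes that stand for them, while C3, Serping1 and C4b each correlated negatively with them. The bases before the transcription start of Cd59a, Cd59b, Cd55 and C3 are shown. They are from RefSeq (GRCm38.p6), whose promoter table holds 4 of the 6 members. Each window is 250 bases, 5′ to 3′ on the gene's own strand. Cd59a lies at chr2:104095551-104095752 (plus strand, with the 48 window bases inside the gene's span left out), Cd59b at chr2:104070816-104071065 (plus), Cd55 at chr1:130462745-130462994 (minus) and C3 at chr17:57228137-57228386 (minus). The windows of Cd59b and Cd55 lie inside the spans RefSeq gives these genes, which start 1035 and 2015 bases further upstream, so they precede 1 of several starts. Capitals mark matches on either strand to the core promoter motif TATAAA, the C/EBP motif TTGCNNAA, the Sp1-type GC box GGGCGG or the motif CCAAT.
Cd59a: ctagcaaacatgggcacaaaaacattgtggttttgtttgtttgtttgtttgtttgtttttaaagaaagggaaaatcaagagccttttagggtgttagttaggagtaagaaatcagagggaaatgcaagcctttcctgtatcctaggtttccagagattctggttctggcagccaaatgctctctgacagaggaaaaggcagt
Cd59b: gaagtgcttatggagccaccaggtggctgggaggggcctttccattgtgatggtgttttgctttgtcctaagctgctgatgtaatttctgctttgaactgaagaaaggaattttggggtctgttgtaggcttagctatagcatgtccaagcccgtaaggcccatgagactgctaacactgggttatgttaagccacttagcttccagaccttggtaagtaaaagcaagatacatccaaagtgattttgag
Cd55: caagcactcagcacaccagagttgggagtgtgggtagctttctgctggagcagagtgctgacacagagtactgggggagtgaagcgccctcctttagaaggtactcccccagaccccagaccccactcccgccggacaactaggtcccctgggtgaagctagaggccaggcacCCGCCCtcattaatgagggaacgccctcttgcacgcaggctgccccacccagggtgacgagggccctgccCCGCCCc
C3: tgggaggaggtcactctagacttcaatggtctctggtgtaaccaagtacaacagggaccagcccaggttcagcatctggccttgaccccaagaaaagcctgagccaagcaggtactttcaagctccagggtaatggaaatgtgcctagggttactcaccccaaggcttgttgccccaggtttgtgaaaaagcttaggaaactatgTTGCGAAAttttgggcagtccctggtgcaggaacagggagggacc
C3 has 1 C/EBP match, TTGCGAAA, at 45 to 38 bases before the start, a motif found in 9.56% of all 32851 windows of this length. Cd55 has 2 GC box matches, a motif found in 32.74% of windows, and is rich in G and C at 64.0%, against a median of 52.4%. Cd59a and Cd59b have no match to any of these motifs in their windows and a G and C content of 44.8% and 45.6%. The interferon-type motif TTCNNNGAA, found in 7.02% of windows, is in none of the 4. None of the marked motifs was common to the 3 genes that varied together. Nothing on their regulation is read from this, since the windows of Cd59b and Cd55 precede 1 of several starts.

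Among the members, the membrane-bound inhibitors Cd59a, Cd59b and Cd55 had their highest mean in hippocampus Sox2-GFP cells. Cr1l and Cd46, other complement inhibitors named after their values were seen, did not on the mean of all arrays. Their highest means were in DCX-DsRed cells (-0.73) and SVZ cells (-2.44), in that order. For both genes, hippocampus Sox2-GFP arrays overlapped those of that group. Cr1l read -0.54, -0.32 and -4.69 in replicates A, B and C of hippocampus Sox2-GFP cells, so its order rested on replicate C. Fewer cells of a type and less RNA per cell cannot be told apart in such sorted bulk samples. Cd59b was at 0.84, 1.19 and 3.29 in replicates A, B and C of hippocampus Sox2-GFP cells, and at -0.14, -0.12 and -2.10 in those of DCX-DsRed. In SVZ cells it was at -6.03, -6.38 and -6.39. The 3 groups did not overlap, and only replicate A of the SVZ was well above background. Hippocampus Sox2-GFP cells lay 2.57 ± 0.75 (SE) above DCX-DsRed cells on the log2 scale, a factor of 5.92. SVZ cells differed by -8.04 ± 0.75 from hippocampus Sox2-GFP cells and by -5.48 ± 0.75 from DCX-DsRed cells. These sizes rest on SVZ signals near background, and with another background correction (normexp) the difference of SVZ minus hippocampus Sox2-GFP cells was -5.58. In mouse, Cd59b is a duplicate of Cd59a next to it on chromosome 2, and is known mainly from testis.

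The second Cd59b probe was dimmer but kept the order of the group means, though the hippocampal groups overlapped. It read -3.01, -4.70 and -0.94 in hippocampus Sox2-GFP cells, all well above background, and -2.59, -7.72 and -6.69 in DCX-DsRed cells, where only replicate A was. In SVZ cells all 3 arrays lacked signal well above background for it, with a mean of -8.28 against -2.88 in hippocampus Sox2-GFP cells, so it was at least 9.66-fold lower there. Such a bound sets the brighter group's mean against the dimmest signal counted as above background on each array. Both Cd59b probes thus placed SVZ cells lowest. Against DCX-DsRed cells the bound on the second probe was only 1.40-fold.

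The first Cd59a probe showed no such gap for the SVZ. It read 2.60, 2.23 and 4.26 in hippocampus Sox2-GFP cells, 2.22, 2.28 and 1.57 in DCX-DsRed cells, and 1.97, 0.61 and 1.00 in SVZ cells, well above background on all 9 arrays. Hippocampus Sox2-GFP and DCX-DsRed cells overlapped, with a difference of 1.00 ± 0.60, while every SVZ array lay below every hippocampus Sox2-GFP array, with a difference of means of -1.84 ± 0.60. SVZ and DCX-DsRed cells overlapped and differed by -0.83 ± 0.60. On this probe the SVZ level was 3.58-fold under that of hippocampus Sox2-GFP cells.

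The second Cd59a probe, listed under the same transcript accession, ordered the hippocampal groups as the first did and differed in the SVZ. It read 3.10, 2.66 and 4.81 in hippocampus Sox2-GFP cells and 1.65, 2.02 and 1.11 in DCX-DsRed cells. In SVZ cells it read -5.01, -6.0 and -6.35, with only replicate A well above background. SVZ minus hippocampus Sox2-GFP was -9.31 on this probe and -1.84 on the first, and since SVZ replicates B and C were not well above background on the second, its difference has no exact size. In hippocampus Sox2-GFP minus DCX-DsRed, where both probes were well above background on every array, their differences lay 0.93 apart. The probes thus disagreed on Cd59a in SVZ cells, where the first was above the 75th percentile of each array and the second was at or near background. What separates the probes was not tested, and their sequences were not used here.

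**Figure D2:**
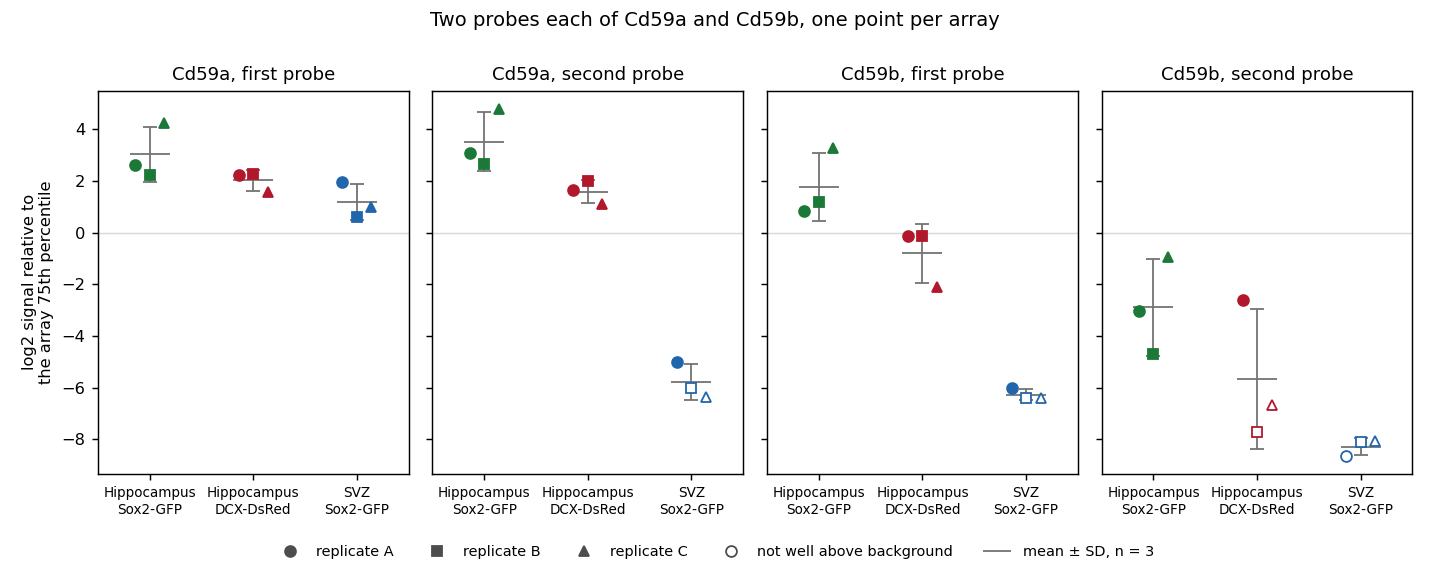
Log2 level of the 2 probes of Cd59a and the 2 of Cd59b on each array, with group mean ± SD (n = 3) and open symbols where the probe was not well above background. SVZ cells are near the hippocampal groups on the first Cd59a probe (0.61 to 1.97). They are far under both on the second Cd59a and first Cd59b probes. On the second Cd59b probe they are far under hippocampus Sox2-GFP cells. DCX-DsRed replicates B and C were also not well above background on it.

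Cd55 read -1.10, -1.02 and 0.79 in hippocampus Sox2-GFP cells, -1.96, -2.31 and -3.46 in DCX-DsRed cells and -3.24, -2.35 and -3.59 in SVZ cells. All hippocampus Sox2-GFP arrays lay above all others, by 2.13 ± 0.64 over DCX-DsRed cells, a factor of 4.38. SVZ minus hippocampus Sox2-GFP was -2.61 ± 0.64, a factor of 6.12. DCX-DsRed and SVZ cells overlapped, with a difference of -0.48 ± 0.64. A second Cd55 probe was above background on none of the DCX-DsRed arrays and was at least 2.31-fold higher in hippocampus Sox2-GFP cells. On another, the groups overlapped in every comparison, and replicate C, the highest hippocampus Sox2-GFP array on the first probe, was the lowest at -7.08. Cd55 has a close copy, Cd55b, on chromosome 1, and signal shared between the copies could not be told apart.

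The size of these differences moved with hippocampus Sox2-GFP replicate C, the highest of its group for Cd59a, Cd59b and Cd55. Without it, hippocampus Sox2-GFP minus DCX-DsRed was 0.39 for Cd59a, 1.81 for Cd59b and 1.51 for Cd55. Within slide 3, where that replicate is the group's only array, the same differences were 2.69, 5.40 and 4.24, and with slide as a block 2.85, 4.86 and 3.71. SVZ minus hippocampus Sox2-GFP without it was -1.23 for Cd59a, -7.28 for Cd59b and -2.0 for Cd55, within slide 3 it was -3.45, -9.68 and -3.75, and with slide as a block -3.37, -9.95 and -4.02. All of these kept their sign. SVZ minus DCX-DsRed could be read on slides 1 and 3, where it was -5.90 and -4.28 for Cd59b and -0.29 and -0.77 for Cd59a, and with slide as a block -5.09 and -0.53. For Cd55 it was -1.11 on slide 1 and 0.49 on slide 3, opposite in sign, and -0.31 with slide as a block.

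Serping1 behaved otherwise. It read 0.11, 0.03 and -2.46 in hippocampus Sox2-GFP cells, -1.42, -1.42 and -1.29 in DCX-DsRed cells and -1.24, -0.16 and -0.16 in SVZ cells. Replicate C of hippocampus Sox2-GFP, the highest of its group for Cd59a, Cd59b and Cd55, was the lowest of all 9 arrays for Serping1. The difference from DCX-DsRed cells was 0.60 ± 0.69, was 1.45 without that replicate, and turned to -1.16 within slide 3 and to -1.48 when slide was a block. SVZ minus hippocampus Sox2-GFP was 0.25 ± 0.69, was -0.59 without the replicate, and was 2.30 within slide 3 and 2.14 when slide was a block. SVZ arrays all lay above DCX-DsRed arrays, by 0.86 ± 0.69, or 0.18 on slide 1, 1.13 on slide 3 and 0.66 with slide as a block. No direction for Serping1 in hippocampus Sox2-GFP cells therefore holds across these readings.

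C3, the protein at which the activation routes meet, varied less on its first probe than on its second. The first, printed 10 times per array with an SD of 0.034 to 0.152 between spots, read 0.78, 0.99 and 0.54 in hippocampus Sox2-GFP cells, 0.87, 0.68 and 0.84 in DCX-DsRed cells and 1.78, 1.23 and 0.97 in SVZ cells. The hippocampal groups differed by -0.03 ± 0.32. SVZ cells were higher than hippocampus Sox2-GFP cells by 0.56 ± 0.32, with overlap, and above DCX-DsRed cells by 0.53 ± 0.32, without overlap. Within slide 3 these were 0.57 and 0.26, with slide as a block 0.69 and 0.63, and the second was 1.00 on slide 1. A second C3 probe, well above background on all 9 arrays, read -1.08, -1.52 and -3.45 in hippocampus Sox2-GFP cells, -2.76, -2.61 and -3.34 in DCX-DsRed cells and -2.33, -2.91 and -3.0 in SVZ cells. On it the sign of SVZ minus hippocampus Sox2-GFP was the opposite, at -0.73, so the small C3 difference between regions depends on the probe.

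C4b, the component cut by the C1 proteases, was measured by 1 probe that lists accessions of both C4b and its neighbour C4a, which it cannot tell apart. Another probe, named for C4a, is counted with the classical pathway genes below. That probe read -0.69, -0.92 and -6.07 in hippocampus Sox2-GFP cells. The C4b probe read 2.62, 2.99 and 2.34 in hippocampus Sox2-GFP cells, 3.82, 3.41 and 2.79 in DCX-DsRed cells and 2.87, 3.07 and 3.34 in SVZ cells. All groups overlapped. Hippocampus Sox2-GFP minus DCX-DsRed was -0.69 ± 0.37, SVZ minus hippocampus Sox2-GFP was 0.45 ± 0.37 and SVZ minus DCX-DsRed was -0.24 ± 0.37. With slide as a block these were -0.84, 0.67 and -0.16, and the last was -0.74 on slide 1 and 0.42 on slide 3.

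**Figure D3:**
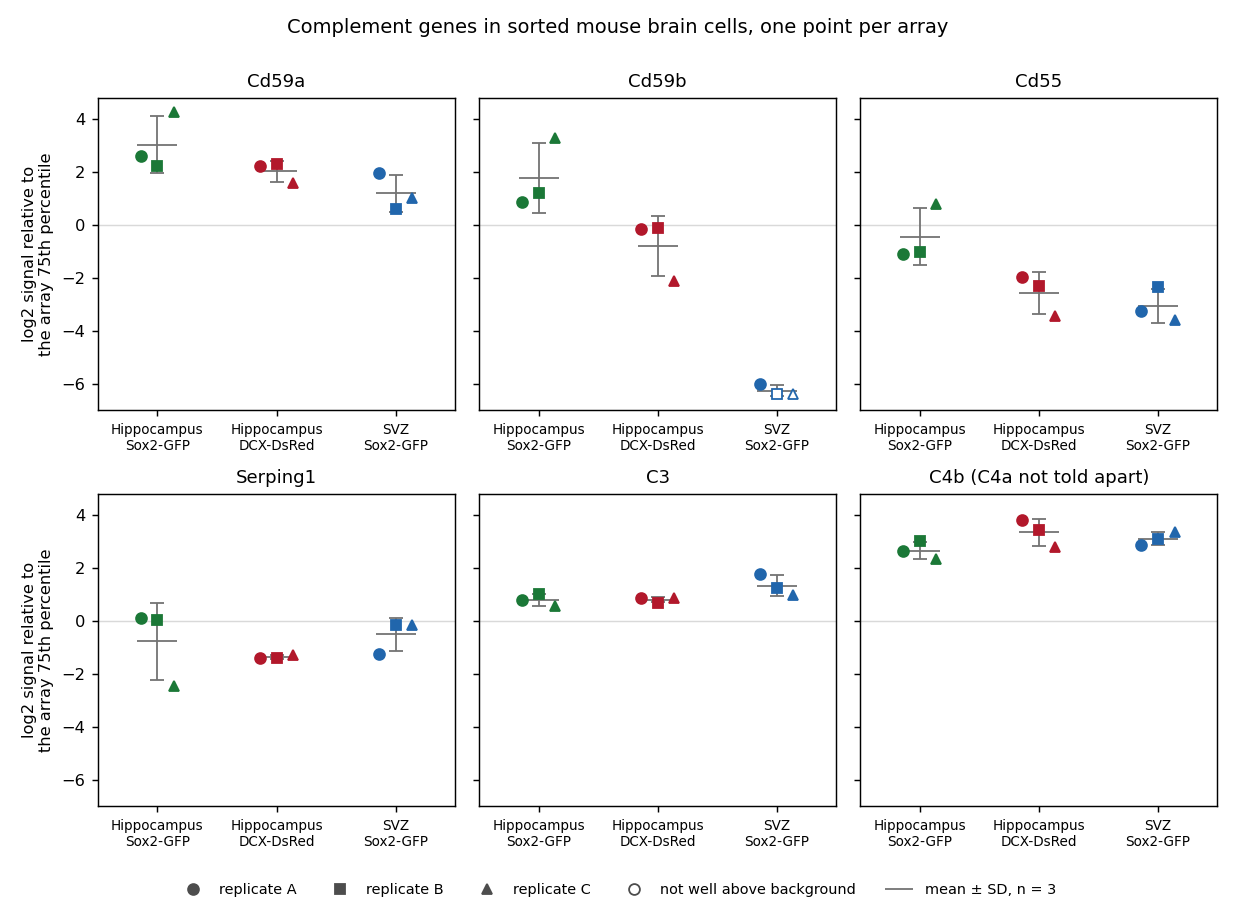
Log2 level of the probe that stands for each of the 6 genes, 1 point per array, with group mean ± SD (n = 3) and open symbols where the probe was not well above background. Cd59b runs from 3.29 down to -6.39, C3 stays between 0.54 and 1.78, and levels of different genes are not comparable.

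Counted over the 6 genes, groups did not overlap for 2 in hippocampus Sox2-GFP against DCX-DsRed cells (Cd59b and Cd55, both higher), beside 24.7% of all 24890 genes. In SVZ against hippocampus Sox2-GFP cells they did not overlap for 3 (Cd59a, Cd59b and Cd55, all lower), beside 16.9% of all genes, and in SVZ against DCX-DsRed cells for 3 (Cd59b lower, Serping1 and C3 higher), beside 21%. Nothing is read from these counts for genes chosen on the same values. These comparisons share arrays, each group entering 2 of them. The median difference over the 6 genes was 0.80, -0.79 and -0.36, beside -0.08, 0.07 and -0.03 over all genes tested.

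Across the 9 arrays, the level of Cd59a had a Pearson r of 0.84 with Cd59b and 0.83 with Cd55, and Cd59b had 0.81 with Cd55. The points share arrays and the 75th percentile scaling, and group differences enter the values. C3 had between -0.74 and -0.50 with these 3, Serping1 between -0.62 and -0.28, and C4b had between -0.48 and -0.28. The 5 genes whose pattern was most like that of Cd59b over the 9 arrays were Enpp2, which encodes autotaxin, Txndc17, Fkbp9, Slc5a3 and Tff3, with r from 0.95 to 0.96. For Cd59a they were Selenbp2, H2-Bl, Mipol1, Actn2 and Oxld1 (0.96 to 0.98). For Cd55 they were its copy Cd55b, Slc35a2, Scarf1, Syne2 and Ggps1 (0.97 to 0.98). The probe of Cd55b that stood for that gene read -3.03, -2.70 and -1.75 in hippocampus Sox2-GFP cells, between -4.09 and -3.43 in DCX-DsRed cells and between -4.29 and -3.64 in SVZ cells, again without overlap of the first group with the others. A second Cd55b probe, well above background on 3 arrays, had an r of -0.24 with Cd55. For Serping1 the 5 were Got1l1, Nr1h3, Trnp1, Ppil3 and Mgst1 (0.95 to 0.97), for C3 Fadd, Ik, Cstf3, Esr2 and Stk35os1 (0.93 to 0.97), and for C4b Tst, Ncf1, Cand2, Cc2d1a and Nkiras2 (0.93). None of the 6 was among the 5 of another.

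The rest of the complement system was read from a list of 47 other genes, of which 46 were tested and Susd4 was not kept. Among them, the inhibitor clusterin (Clu), which binds terminal complexes in fluid, was at 4.14, 3.85 and 4.70 in hippocampus Sox2-GFP cells and 0.19, -1.25 and 0.96 in DCX-DsRed cells. It was 19.2-fold higher in the former, with a log2 difference of 4.26 ± 0.61 (SE) and adjusted p = 0.0122 in limma. In SVZ Sox2-GFP cells Clu was at 3.70, 3.51 and 4.80, 16.4-fold above DCX-DsRed cells (4.04 ± 0.61, adjusted p = 0.0228 in limma), and overlapped hippocampus Sox2-GFP cells (-0.23 ± 0.61, adjusted p = 0.922 in limma). Clu is also a gene of astrocytes and of choroid plexus, whose marker sums are given above. Within slide 3 its differences from DCX-DsRed cells were 3.73 and 3.19, within slide 1 the SVZ difference was 4.23, and with slide as a block they were 4.08 and 3.71.

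Vitronectin (Vtn), which keeps terminal complexes from inserting into membranes, was at -1.80, 0.26 and 0.18 in hippocampus Sox2-GFP cells and -3.68, -3.96 and -5.13 in DCX-DsRed cells. It was 14.0-fold higher in the former (3.80 ± 0.69 on the log2 scale, adjusted p = 0.0276 in limma). That call was lost in limma without hippocampus Sox2-GFP replicate B or C (adjusted p = 0.0815 and 0.0611) and without DCX-DsRed replicate A, B or C (0.0712, 0.0784 and 0.0815). The difference was 5.31 within slide 3 and 5.27 with slide as a block. In SVZ cells Vtn was at -3.87, -4.73 and -5.39, and SVZ minus hippocampus Sox2-GFP was -4.21 ± 0.69, with adjusted p = 0.0558 in limma, just over the threshold. The SVZ call of Clu was likewise lost in limma without DCX-DsRed A or B (adjusted p = 0.0873 and 0.0589) or any SVZ replicate (0.0537, 0.0510 and 0.0820).

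By role, 2 of the 46 genes passed the test in hippocampus Sox2-GFP against DCX-DsRed cells, both of them higher inhibitors of the 12 tested, none in SVZ against hippocampus Sox2-GFP cells, and 1 (Clu) in SVZ against DCX-DsRed cells. Over all genes, limma called 3.17%, 0.398% and 1.55% in the same order at an adjusted p under 0.05. An unadjusted p under 0.05 in limma was met by 5, 5 and 6 of the 46, or 10.9%, 10.9% and 13.0%, beside 16.9%, 10.8% and 13.7% of all genes. Medians of the list were -0.08, 0.12 and 0.002 in the 3 comparisons, close to those of all genes. The 7 classical pathway genes all had a negative difference in hippocampus Sox2-GFP minus DCX-DsRed, with a median of -0.72, and none was called. For most of them the groups overlapped. Negative differences were found for 26 of the 46 listed genes and 13383 of all 24890. For C1s1 and C2 the sign rested on hippocampus Sox2-GFP replicate C. In replicates A, B and C, C1s1 read -1.33, -1.60 and -3.0, against a DCX-DsRed mean of -1.64. C2 read 0.68, 0.19 and -0.29, against 0.38. C4a was not well above background in hippocampus Sox2-GFP replicate C, at -6.07. The smallest p among the 7 was that of C1qc, a chain of C1q, at -1.91 ± 0.93 (adjusted p = 0.351 in limma). In both SVZ comparisons the smallest p was that of the protease C1s1, at 2.23 ± 0.70 against hippocampus Sox2-GFP cells and 1.88 ± 0.70 against DCX-DsRed cells (adjusted p = 0.306 and 0.271 in limma).

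The 8 lectin pathway, 3 alternative pathway, 7 terminal and 9 receptor genes had no call in any comparison. In each role the gene with the smallest p is given. In hippocampus Sox2-GFP minus DCX-DsRed these were the protease Masp2 at -0.84 ± 0.36 (adjusted p = 0.283 in limma), properdin (Cfp), which stabilises the C3-cutting enzyme, at -0.35 ± 0.27 (0.551), C8g, a chain of C8, at 2.26 ± 0.62 (0.103) and the receptor Vsig4 at -0.76 ± 0.40 (0.390). With the mean of its probes Masp2 turned to 0.70 (adjusted p = 0.333 in limma). With slide as a block C8g was at 3.85 with adjusted p = 0.0308 in limma, and without hippocampus Sox2-GFP replicate C at 1.78 with 0.200. In SVZ minus hippocampus Sox2-GFP they were the ficolin Fcna at -1.0 ± 0.52 (adjusted p = 0.537 in limma), Cfp at 0.80 ± 0.27 (0.336), C8g at -2.37 ± 0.62 (0.220) and C5ar2 at -1.52 ± 0.78 (0.534). With slide as a block C8g and C5ar2 passed there, at -3.65 and -2.78 (adjusted p = 0.0278 and 0.0339 in limma). That block ties hippocampus Sox2-GFP cells to the SVZ only through replicate C, where C5ar2 was at 1.29 against -1.41 and -0.93 in A and B. Without replicate C, C8g was at -1.89 and C5ar2 at -0.70 (adjusted p = 0.378 and 0.85 in limma). In SVZ minus DCX-DsRed they were the mannose-binding lectin Mbl2 at 1.27 ± 0.48 (adjusted p = 0.291 in limma), Cfp at 0.44 ± 0.27 (0.535), Hc, which encodes C5, at 1.30 ± 0.64 (0.426) and the integrin Itgax at -1.55 ± 0.48 (0.189). Cpn1, the catalytic chain of carboxypeptidase N, was named after its values were seen. It was 17.7-fold higher in Sox2-GFP cells of the hippocampus than in DCX-DsRed ones (4.14 ± 1.03) but was not called, with adjusted p = 0.0750 in limma.

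**Figure D4:**
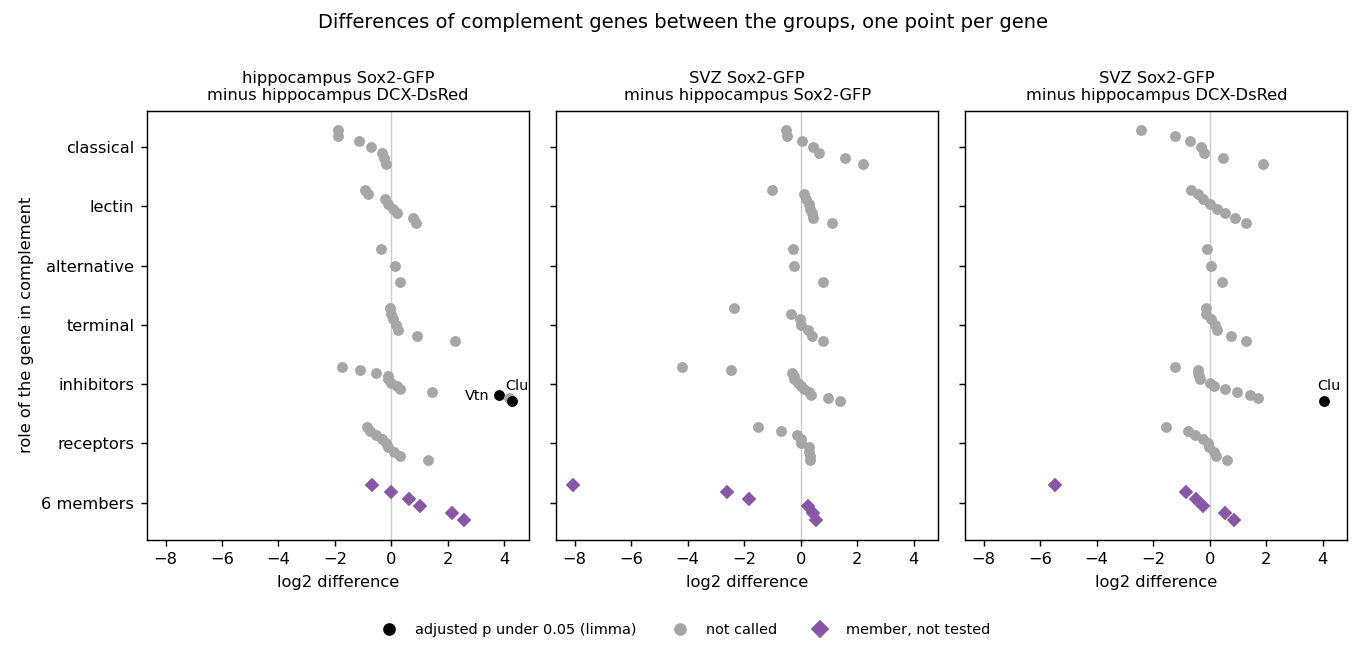
Log2 difference between groups for each of the 46 other complement genes by role and for the 6 members, 1 panel per comparison. Of the 46, only Clu and Vtn carry an adjusted p under 0.05 (limma), the members are drawn without a test, and Cd59b lies farthest from 0 in both SVZ panels, at -8.04 and -5.48.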

How the data were processed

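RNA of sorted cells was measured on 9 Agilent arrays in 1 colour (Cy3). Per the file headers, the deposited processed intensity of each spot came from Agilent Feature Extraction 9.5.1.1, which subtracts background and puts a surrogate in place of signals under the noise, so low values are floors. Deposited mean and local background intensities were used for normexp (offset 50), and the other deposited columns, 0 and 1 flags for outlier spots and signals well above background, for filters. limma is the 1 tool in the submitters' processing notes, where no version stands. 1 file had been resaved with 47 altered symbols, so names came from the intact files.

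Outlier spots were dropped, 40710 probes remained, and log2 intensity was centred on each array's 75th percentile. Probes well above background on at least 3 arrays were kept, and the brightest stood for its gene. Probes were named through RefSeq accessions where these matched (22951 of 41174). Groups and letters came from sample titles. The 3 differences were fitted with limma 3.58.1 (R 4.3.3) to the 9 arrays together, which left 6 residual degrees of freedom. P-values were adjusted by Benjamini-Hochberg over 24890 genes, with a threshold of 0.05, and the fit was tested on simulated data. Those data had independent noise and no slide effect, so they cannot show how slides bear on the fit. The members, the lists, the markers and the naming rule were chosen with earlier results of these data known. Named are the 6 members, every called gene of the list, else the gene with the smallest p of each role, and for each member the 5 most correlated genes. Alternatives were other scaling, background correction, filters, probe choice, slide or replicate blocks, single slides and leaving out each array. The number of arrays limits the precision, and no probe positions are printed because the sources used here name no build for them.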

Additional observations from a re-analysis of the deposited data

How the results depend on the processing

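Counts of calls moved with the treatment of slides. With slide as a fixed block, limma called 2024, 2128 and 794 of all genes in hippocampus Sox2-GFP minus DCX-DsRed, SVZ minus hippocampus Sox2-GFP and SVZ minus DCX-DsRed, against 790, 99 and 385 without it, and 5 listed complement genes in each of the first and second, against 2 and 0. As a random block it called 834 in the last and 1 complement gene in the second. Within slide 1 or slide 3, with 1 residual degree of freedom, limma called 0 genes in every comparison available, where 2638 to 4472 genes had an unadjusted p under 0.05. Same letters in different groups had correlations of deviations from -0.04 to 0.12 over 9 pairs, too low to take the letters as pairs, and some of these pairs also share a slide. The replicate block gave 489, 13 and 191 calls over all genes, and 1 complement gene each in the first comparison (Clu) and the last. In SVZ minus hippocampus Sox2-GFP, normexp gave 162 calls, the mean of a gene's probes 173 and the 6 arrays compared alone 8. There quantile scaling, normexp, the filter on all 3 arrays of a group and the mean of probes each called 1 complement gene, Vtn. Leaving out each array gave 251 to 773, 25 to 97 and 49 to 847 calls over all genes, the last without hippocampus Sox2-GFP replicate C, and 1 to 3, 0 and 0 to 1 complement genes. The cause was not tested, except that single slides and left-out arrays hold fewer samples. Of 530 readings of member differences under alternatives, 58 moved by more than 1 pooled SD. Taking the mean of both probes, Cd59a was at -5.57 in SVZ minus hippocampus Sox2-GFP and -4.11 in SVZ minus DCX-DsRed, and C3 at -0.09 in the former. Signals near background limit Cd59b and the second Cd59a probe in SVZ cells, where normexp gave -5.58 and -6.87 against hippocampus Sox2-GFP cells.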
